A study of Nasonia vitripennis with 15 samples.

Results

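RNA from testes of the parasitoid wasp Nasonia vitripennis was followed from 10 h to 24 h at 25 °C, as pupae of the strain AsymC passed from the white nymph to the red-eyed white nymph stage. The comparison used 6 of the 15 libraries in the series, 3 pools (A, B and C) at 10 h and 3 pools at 24 h, chosen by the time and temperature in their titles. Each pool held 60 testes per the labels and counted as 1 replicate, and nothing in the labels says that pools of one group came from separate cultures, so that p-values measure the spread between pools, which may be in part technical. The other 9 libraries were 3 pools each at 0 h at 25 °C (white nymphs), at 10 h at 36 °C (white nymphs) and at 24 h at 36 °C (red-eyed white nymphs). Time and stage changed together between the groups and cannot be told apart.

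Male wasps are haploid. In Nasonia the reductional division is abortive, the second division separates chromatids as in other insects, and spermatids then build a flagellum, condense their chromatin and are individualized from their cyst. Spermatogenesis is synchronized in the pupa, and white nymphs are described as holding primary spermatocytes and red-eyed nymphs secondary spermatocytes. In RNA from whole testes, more cells of a type and more RNA per cell cannot be told apart.

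Between 10 h and 24 h, 244 of 7573 transcripts tested rose (3.22%) and 96 fell (1.27%) at a Benjamini-Hochberg adjusted p under 0.05 in edgeR's quasi-likelihood test. The named risers were klhl10, armadillo, the motility gene heat, Fgfr1op, a thioredoxin ortholog, a CG44836 ortholog and the yellow genes Y-b and Y-e. The named fallers included oskar, mei-P26, Alpha 2 importin, Ctps, the modulo ortholog NV18665, Nop60b-like, Sf3b3 and Ints12. Genes with no descriptive name made up 236 of the 244 risers and 87 of the 96 fallers, and also 7064 of the 7573 transcripts tested. The rise was moderate, with a median log2 fold change of 0.91 (range 0.54 to 4.84), and the fall was of like size, with a median of -0.94 (range -2.38 to -0.58). Over all transcripts tested the median was -0.02.

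These calls were borderline and rested on single pools. Adjusted p-values of called transcripts began at 0.0345, and 963 transcripts had an adjusted p under 0.1. An unadjusted p under 0.05 was found for 1884 of the 7573 tested, 987 higher and 897 lower. The counts in the gene lists below are to be read beside these and beside the 4.49% of transcripts that passed. Without 10 h pool A or without 10 h pool C no transcript passed in edgeR (1394 and 1322 at an unadjusted p under 0.05), so that each call below is lost in both fits. Without 24 h pool A 9 rose and 1 fell, without 24 h pool B 27 rose and 5 fell, and without 24 h pool C 391 rose and 135 fell. Without 10 h pool B the counts were larger, 488 risers (6.42%) and 292 fallers (3.84%) of 7607 tested, and 309 of the 340 calls remained. DESeq2 called 486 risers and 210 fallers, and 330 of the 340 were among them.

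Pool B at 10 h stood apart from its group. On the first principal component of log2 CPM (a library's counts scaled to a common total, with TMM factors), which held 61.3% of the variance, 10 h pools A and C lay at -38.3 and -38.2 and 10 h pool B at -1.04. The pools at 24 h lay at 47.8 (A), 16.6 (B) and 13.1 (C). The Pearson correlation across transcripts of 10 h pool B with 24 h pool C was 0.982, and that with 10 h pools A and C was 0.958 and 0.963. The total count was 1813941 to 4362798 in the 10 h pools and 2231479 to 3716748 in the 24 h pools, and 10 h pool B, with 3177175, was in the middle of its group.

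**Figure D1:**
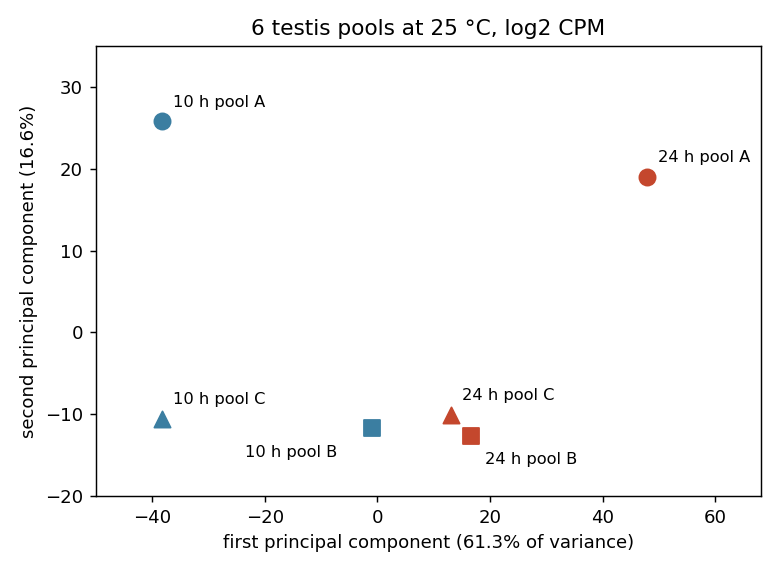
First (horizontal) and second (vertical) principal component of log2 CPM for the 6 pools at 25 °C, with the share of variance on each axis; color marks the time and the symbol the pool letter. The 10 h pools A and C sit at the left, near -38, and 10 h pool B lies at -1.04, close to 24 h pools B and C.

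NV12630 shows the place of 10 h pool B in an extreme case, picked after its values were seen, at 4.20 and 5.87 CPM in 10 h pools A and C, 70.5 CPM in pool B and 74.8, 89.5 and 86.0 CPM at 24 h. Its log2 fold change was 1.61 (SE 1.16, adjusted p = 0.464 in edgeR) with pool B and 4.10 (adjusted p = 9.99e-05) without it. Leaving out the 10 h pool nearest the 24 h pools tends to widen the gap between the groups. Values without 10 h pool B are given below as a description and are not separate support.

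Markers of muscle and epidermis moved along with the pools. The muscle list, 26 transcripts of which 3 were tested, summed to 421, 789.8 and 358 CPM in 10 h pools A, B and C and to 1494, 889.8 and 875 CPM at 24 h. Act88F, a flight muscle actin of the fly, has its ortholog in NV18317, which stood at 78.7, 470.1 and 101 CPM at 10 h and 1069, 553 and 549 CPM at 24 h (adjusted p = 0.318, and 0.00579 without 10 h pool B). Cuticle protein transcripts, made by epidermis, summed to 187, 432 and 149 CPM at 10 h and to 11841, 587 and 670.4 CPM at 24 h. Most of the value in 24 h pool A came from 1 cuticle gene, apd-3, with 9616 CPM there, 342 and 428 CPM in 24 h pools B and C, and 0, 197 and 16.6 CPM at 10 h (adjusted p = 0.293). So both list sums were highest in 10 h pool B among the 10 h pools, and in 24 h pool A among all. Single genes weighed heavily in these sums. In 10 h pool B, NV18317 gave 470.1 of the 789.8 CPM of the muscle list, and apd-3 gave 197 of the 432 CPM of the cuticle list.

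Fat body and nerve lists had low sums that overlapped between the groups, and gut and blood cell lists had low sums that were lower at 24 h. Fat body markers (hexamerins) ranged from 52.3 to 71.1 CPM at 10 h and from 69.4 to 81.3 CPM at 24 h, nerve markers from 43.1 to 47.4 and from 43.2 to 52.0 CPM, and gut markers from 14.6 to 23.7 and from 13.2 to 13.7 CPM. Blood cell markers stayed between 1.63 and 6.36 CPM in the 6 pools. With the cuticle, Osiris and yellow lists and apd-3 taken out of the fit, 257 transcripts rose and 99 fell, and 337 of the 340 calls remained. The part of muscle and epidermis RNA in the remaining calls was not tested. As a weak check of the tissue, the list of axoneme genes summed to at least 9976 CPM and the germ line list to at least 151 CPM in each pool. The axoneme sum includes the dynein light chain gene cut up, whose high levels are given below. In 24 h pool A, oskar alone gave 133 of the 151 CPM of the germ line list.

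Genes without a name had the largest rises. GeneID 100679922 stood at 0.221, 1.19 and 0.489 CPM in 10 h pools A, B and C and at 32.9, 11.7 and 10.8 CPM at 24 h. Its log2 fold change was 4.84 (SE 0.65, adjusted p = 0.0345 in edgeR, 0.0110 without 10 h pool B). The 10 h values rest on 1, 4 and 1 counts, so that the size of this rise is uncertain. NV15411 stood at 3.76, 6.84 and 5.38 CPM at 10 h and at 54.6, 24.4 and 20.8 CPM at 24 h (log2 fold change 2.67, SE 0.40). In both, the groups lay far apart and 24 h pool A was the highest. Among called transcripts with a mean of at least 10 CPM at 24 h, other large rises were those of GeneID 100679256, a transcript of NV13787, NV18245 and NV17243, with log2 fold changes of 3.73, 3.40, 2.85 and 2.57. The NV13787 transcript had 1, 7 and 1 counts in the 10 h pools. NV17243 missed the threshold without 10 h pool B (adjusted p = 0.0573). GeneID 103316119 was among the 10 most abundant transcripts and rose from 3462, 5177 and 3505 CPM to 10474, 8525 and 6876 CPM (log2 fold change 1.09, SE 0.25).

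klhl10, a gene known from spermiogenesis, rose. It encodes a kelch protein that in the fly recruits substrates to a cullin-3 ubiquitin ligase needed for sperm individualization, and it stood at 992, 1288 and 918 CPM at 10 h and 2502, 1856 and 1686 CPM at 24 h. The lowest 24 h pool lay above the highest 10 h pool, which was pool B, and the log2 fold change was 0.92 (SE 0.21, adjusted p = 0.0379 in edgeR, 0.0245 without 10 h pool B). Transcripts of its partner cul-3 did not pass, the most abundant having a log2 fold change of 0.33 (SE 0.20, adjusted p = 0.332). The testis gene fest stood at 2208, 2049 and 2656 CPM at 10 h and 1094, 1660.2 and 1917 CPM at 24 h (adjusted p = 0.141). The study also ties Alpha 2 importin and Blanks (NV18413) to sperm individualization, and both went the other way. Alpha 2 importin fell, as given below. Blanks stood at 560, 507 and 520 CPM at 10 h and 395, 403 and 454 CPM at 24 h. With a value of -0.34 (SE 0.15) it missed the threshold in edgeR (adjusted p = 0.183), though its groups did not overlap.

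**Figure D2:**
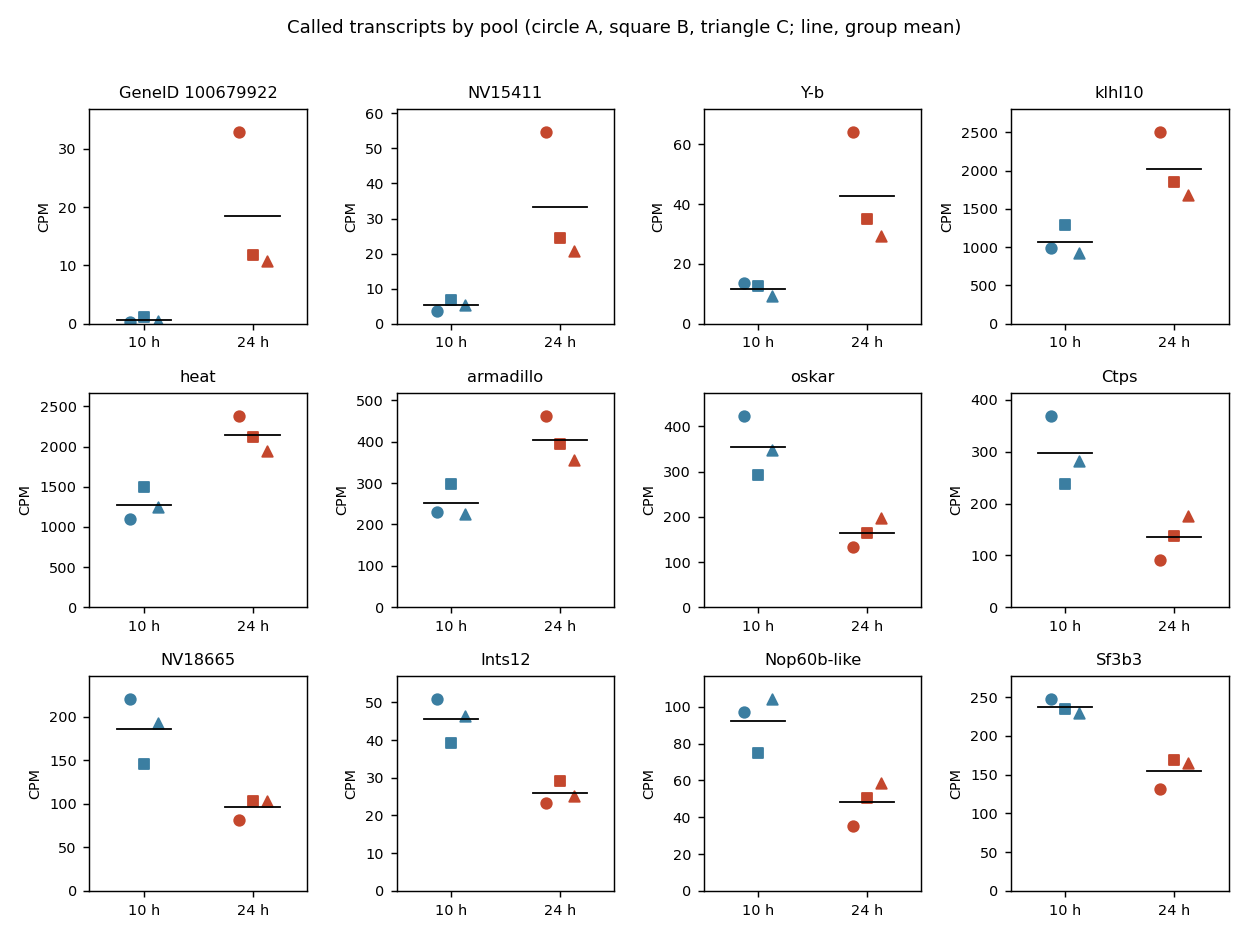
CPM (vertical axis, starting at 0) of 12 called transcripts at 10 h and 24 h at 25 °C, a symbol for each pool and a line at the group mean of 3 pools. In klhl10 the pools lie between 918 and 1288 CPM at 10 h and between 1686 and 2502 CPM at 24 h, and in oskar between 292 and 423 CPM and between 133 and 197 CPM. The groups overlap in no panel, as in none of the 340 calls.

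The 5 genes of the sperm motility list encode or are tied to axonemal dyneins, the motors of the flagellum. The study drew this list, and those of spermatid differentiation, oogenesis and Notch processing, from genes whose expression changed between these stages in its own testis libraries, so that their counts and directions are not independent evidence. Only heat (NV10434) passed, 1 of 5, where 3.22% of all transcripts rose. It stood at 1093, 1497 and 1245 CPM at 10 h and 2385, 2114 and 1945 CPM at 24 h (log2 fold change 0.75, SE 0.19, adjusted p = 0.0437 in edgeR). The dynein NV16467 stood at 1238, 2603 and 1609 CPM at 10 h and 3147, 3535 and 3265 CPM at 24 h (log2 fold change 0.87, SE 0.25, adjusted p = 0.0596). In that gene 10 h pool B lay nearer the 24 h pools than the other 10 h pools. The dynein NV14122, Dnai2 and Kl5 had positive values of 0.58, 0.38 and 0.48 and adjusted p-values of 0.122, 0.195 and 0.225. The study gives the NV number of Kl5 also to mule, in its spermatid differentiation list. The identity of that gene is therefore uncertain, and both lists share it. Without 10 h pool B, where 6.42% of all transcripts were higher, 4 of the 5 passed, all of them higher, and the exception was Dnai2 (adjusted p = 0.163). Summed over the list, the level was 5068, 8265 and 5811 CPM in the 10 h pools and 9852, 10301 and 10021 CPM in the 24 h pools. These do not overlap, but the separation depends on the TMM factors. Without them 24 h pool A, at 8150 CPM, lay below 10 h pool B, at 8748 CPM.

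In the spermatid differentiation list 1 of 4 members passed, where 3.22% of all transcripts rose, and the median log2 fold change was 0.68. This was armadillo, the β-catenin of insects, with 231, 297 and 226 CPM at 10 h and 463, 395 and 357 CPM at 24 h (log2 fold change 0.69, SE 0.17, adjusted p = 0.0396 in edgeR). The myosin V gene didum (0.73, adjusted p = 0.0595) and the dynein light chain gene cut up (0.67, adjusted p = 0.0853) missed the threshold. The remaining member was the gene given as both mule and Kl5 (0.48, adjusted p = 0.225). cut up was nearly even among the 10 h pools, 4874, 4836 and 4767 CPM, and stood at 9546, 7033 and 6438 CPM at 24 h. Among the wider group of dynein light chains and dynactin subunits 0 of 14 passed in edgeR, with 2 higher and 0 lower at an unadjusted p under 0.05, and 0 of 14 passed without 10 h pool B. Their median log2 fold change was 0.14.

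Further named risers had lower levels. Fgfr1op, a centrosomal protein gene in vertebrates, stood at 57.0, 79.4 and 83.1 CPM at 10 h and 141, 109.6 and 118 CPM at 24 h (log2 fold change 0.76, SE 0.18). A transcript of NV13156, whose fly orthologs include the germ line thioredoxins dhd and TrxT, rose from 198, 232 and 206 CPM to 471, 388 and 296 CPM (log2 fold change 0.86, SE 0.18). A transcript of NV16841, the ortholog of CG44836, had a log2 fold change of 1.04 (SE 0.26). All 3 calls were lost without 10 h pool A or without 10 h pool C. Without 10 h pool B their adjusted p-values were 0.0352, 0.0253 and 0.0351 in edgeR.

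Yellow proteins are insect proteins known from cuticle pigmentation. Y-b stood at 13.5, 12.5 and 9.29 CPM at 10 h and 64.1, 35.1 and 29.2 CPM at 24 h (log2 fold change 1.85, SE 0.31, adjusted p = 0.0345 in edgeR). A transcript of Y-e stood at 4.20, 9.22 and 7.34 CPM at 10 h and 19.2, 15.9 and 14 CPM at 24 h (log2 fold change 1.27, SE 0.34, adjusted p = 0.0467). Together they were the 2 members called among the 8 tested of the Osiris and yellow list, whose median was 0.61, where 3.22% of all transcripts rose. The cuticle list had the largest median of any list, 1.86 over 15 members, with 14 values above 0, yet 0 members passed in edgeR (2 higher and 0 lower at an unadjusted p under 0.05; 1 passed without 10 h pool B). These rises stand beside the summed cuticle level given above, which was highest in 24 h pool A.

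**Figure D3:**
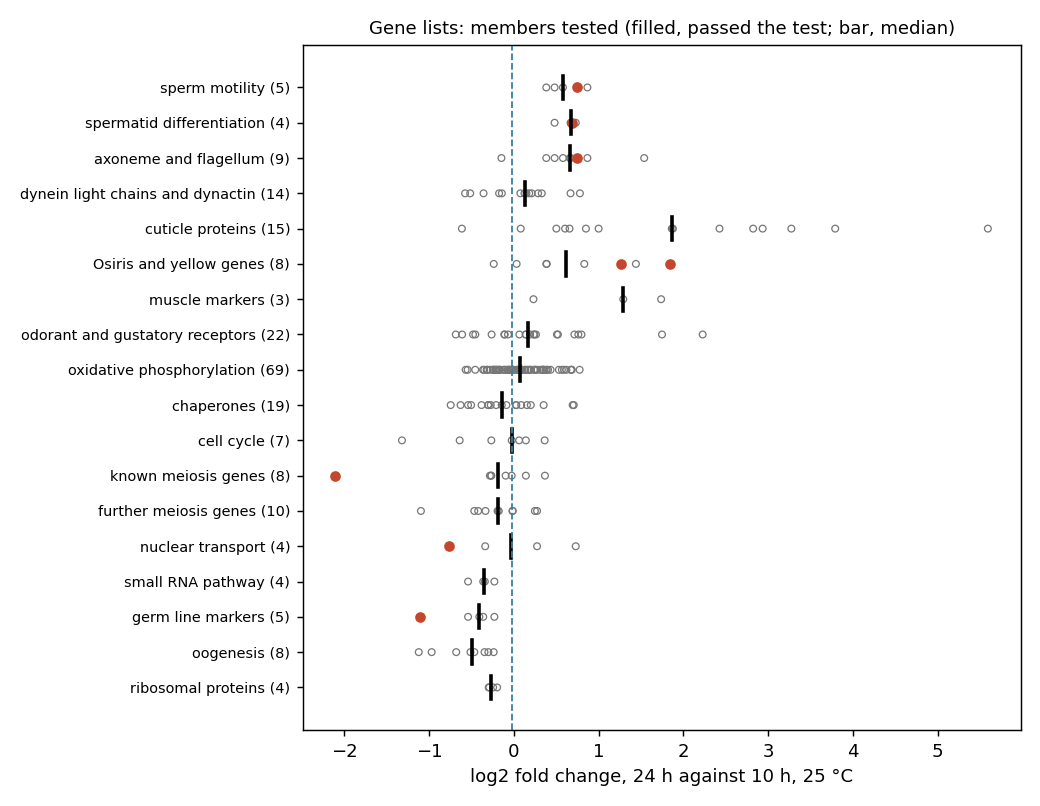
Log2 fold change from 10 h to 24 h at 25 °C (horizontal axis) of each tested member of 18 gene lists, with the number tested in brackets; filled points passed the test, open points did not, the bar is the list's median and the dashed line the median of all 7573 transcripts. Spermatid, motility and cuticle lists lie to the right of the line, with medians of 0.68, 0.58 and 1.86, and the oogenesis list to the left, with a median of -0.49.

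Among the fallers, oskar had the lowest p. This gene, which in the fly nucleates the germ plasm of the egg, stood at 423, 292 and 347 CPM in 10 h pools A, B and C and at 133, 164 and 197 CPM in the 24 h pools (log2 fold change -1.11, SE 0.19, adjusted p = 0.0345 in edgeR, 0.0113 without 10 h pool B). Pool B was the lowest at 10 h and still lay above every 24 h pool. Of the 5 germ line transcripts tested oskar alone passed, where 1.27% of all transcripts fell. The translational repressor nos stood between 2.45 and 5.65 CPM at 10 h and between 1.95 and 4.69 CPM at 24 h (adjusted p = 0.645), and the aub/piwi orthologs and spn-E, of the small RNA pathway, had values from -0.54 to -0.23.

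NV18665 is the ortholog of modulo, a nucleolar protein of the fly, and fell from 220.4, 145 and 193 CPM to 81.3, 103 and 104 CPM (log2 fold change -0.96, SE 0.18, adjusted p = 0.0345 in edgeR). Nop60b-like, named after a fly enzyme that makes pseudouridine in ribosomal RNA, fell from 97.3, 74.9 and 104 CPM to 35.1, 50.6 and 58.8 CPM (log2 fold change -0.94, SE 0.21). Ctps, which encodes CTP synthase, stood at 369.6, 238 and 283 CPM at 10 h and 90.7, 137 and 176 CPM at 24 h (log2 fold change -1.14, SE 0.24). The splicing factor gene Sf3b3 fell by 0.61 and the Integrator subunit gene Ints12 by 0.82 on the log2 scale. The 3 first genes were lowest in 24 h pool A, and in each the pools of the groups did not overlap, as in all 340 calls. Ribosomal proteins, of which 4 were tested by symbol, did not pass in edgeR (0 at an unadjusted p under 0.05, and 0 without 10 h pool B), with values from -0.30 to -0.20.

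Alpha 2 importin, a carrier of proteins into the nucleus, fell from 420.5, 339 and 470.5 CPM to 176, 245 and 299.8 CPM (log2 fold change -0.77, SE 0.20, adjusted p = 0.0437). The study names it for sperm individualization too, so that its fall stands against the rise of klhl10. Alpha 2 importin was the 1 member called of 4 tested in the nuclear transport list, where 1.27% of all transcripts fell. The median of that list was -0.03, and a transcript of NV14356 went the other way (0.73, adjusted p = 0.0948 in edgeR). Smc6, which acts with Smc5 in repair, had a log2 fold change of -0.72 (SE 0.24, adjusted p = 0.0876).

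The transcripts of mei-P26, a TRIM-NHL regulator of germ cell differentiation in the fly, had unlike values. One of them, XM_008217734.1, stood at 17.2, 5.35 and 7.34 CPM at 10 h and 1.63, 2.81 and 2.80 CPM at 24 h (log2 fold change -2.10, SE 0.51, adjusted p = 0.0391 in edgeR). The other tested, XM_001608102.3, stood at 14.8, 15.2 and 24.0 CPM and 9.76, 18.7 and 15.6 CPM (log2 fold change -0.28, adjusted p = 0.616). Transcripts of 1 gene share sequence, so that the values of each are uncertain, and the difference between them was not tested.

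Among the known meiosis genes, mei-P26 gave the 1 call of 8 transcripts tested, where 1.27% of all transcripts fell. The cyclins did not pass. cyclin B stood at 600.2, 692 and 641 CPM at 10 h and 591, 768 and 774 CPM at 24 h (log2 fold change 0.14, SE 0.17, adjusted p = 0.654 in edgeR), and cyclin-A and the tested transcript of Cdk1 had values of -0.10 and -0.03. In the cell cycle list 0 of 7 passed in edgeR (0 higher and 2 lower at an unadjusted p under 0.05; 0 without 10 h pool B). The CycE ortholog NV18076, which is not on that list, had a log2 fold change of -0.95 (SE 0.27, adjusted p = 0.0592) with no overlap of the groups. In the list of further meiosis genes 0 of 10 passed in edgeR, with 0 higher and 2 lower at an unadjusted p under 0.05, and 1 passed without 10 h pool B.

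In the oogenesis list all 8 values were below 0, with a median of -0.49, and 0 passed in edgeR (4 lower at an unadjusted p under 0.05; 1 without 10 h pool B). Nearest was a transcript of Neb, a kinesin gene, at 44.2, 31.5 and 44.5 CPM at 10 h and 10.4, 18.7 and 26.4 CPM at 24 h (log2 fold change -1.12, SE 0.30, adjusted p = 0.0512). In the oxidative phosphorylation list 0 of 69 passed in edgeR, where 4.49% of all transcripts passed. At an unadjusted p under 0.05, 7 were higher and 0 lower, where 987 and 897 of all 7573 tested were. The median of the list was 0.07, with values on both sides of 0. In all, 26 of the 42 lists with a tested member had no call.

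A wider list of the study holds orthologs of fly genes whose mouse counterparts are expressed mainly in testis. Of its 98 tested transcripts, 3 rose and 2 fell, 5.10% against 4.49% of all transcripts tested, and the median was -0.02. The 5 were klhl10, the thioredoxin ortholog, the CG44836 ortholog, the modulo ortholog and Alpha 2 importin. Without 10 h pool B 7 were higher and 4 lower, where 6.42% of all transcripts were higher and 3.84% lower. Of the small heat shock orthologs, NV13801 stood at 388, 225 and 358 CPM at 10 h and 165, 188 and 226 CPM at 24 h (log2 fold change -0.75, adjusted p = 0.0526), with 10 h pool B a little below the highest 24 h pool. It had the lowest p of the chaperone list, in which 0 of 19 tested passed in edgeR. The median of that list was -0.14, with 8 values above 0 and 11 below. Without 10 h pool B 1 member was higher and 1 lower.

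The rising transcripts were abundant and often outside the older gene catalogue. Their median level over the 6 pools was 229 CPM, against 61.4 CPM for the fallers and 32.8 CPM for all tested. Among the 1893 most abundant transcripts 160 rose (8.45%), and among the 1894 least abundant 16 did (0.845%). Fallers numbered 30 (1.58%) among the most abundant, 38 (2.01%) among the 1893 next most abundant and 9 (0.475%) among the least abundant. The power of the test differs with level, and its part in these shares was not tested. Of the risers 128 (52.5%) carried no NV number, the identifier of the official gene set, against 29.6% of transcripts tested and 27.1% of the fallers. Within those 1893 most abundant transcripts the share was 54.4% of risers and 22.7% of all. Non-coding RNAs made up 4.92% of the risers and 5.10% of the tested, and 12 of 386 rose and 2 fell.

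Groups separated at more transcripts than were called. At 1184 transcripts (15.6%) every 24 h pool lay above every 10 h pool, and at 1103 (14.6%) every 24 h pool lay below. Both together made 2287 transcripts (30.2%), and all 340 calls were among them. At 1 transcript, GeneID 100678540, the 10 h pools had no count and each 24 h pool at least 10, with 195, 28 and 13 counts in 24 h pools A, B and C (adjusted p = 0.241 in edgeR).

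The pools at 36 °C cover the same interval and share no library with those at 25 °C, apart from a common scaling and spread. There, 5 transcripts rose and 1 fell at an adjusted p under 0.05 in edgeR (0.0599% and 0.0120% of 8351; 1675 at an unadjusted p under 0.05). GeneID 103317367 alone passed in the same direction at both temperatures, with log2 fold changes of 0.96 at 25 °C and 1.75 at 36 °C. Yet 238 of the 244 risers had a positive log2 fold change at 36 °C, against 49.5% of all tested, and 88 of the 96 fallers a negative one, against 50.5%. The median at 36 °C was 0.66 over the risers and -0.76 over the fallers. The transcripts vary together from pool to pool, so that these counts are not so many separate observations.

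**Figure D4:**
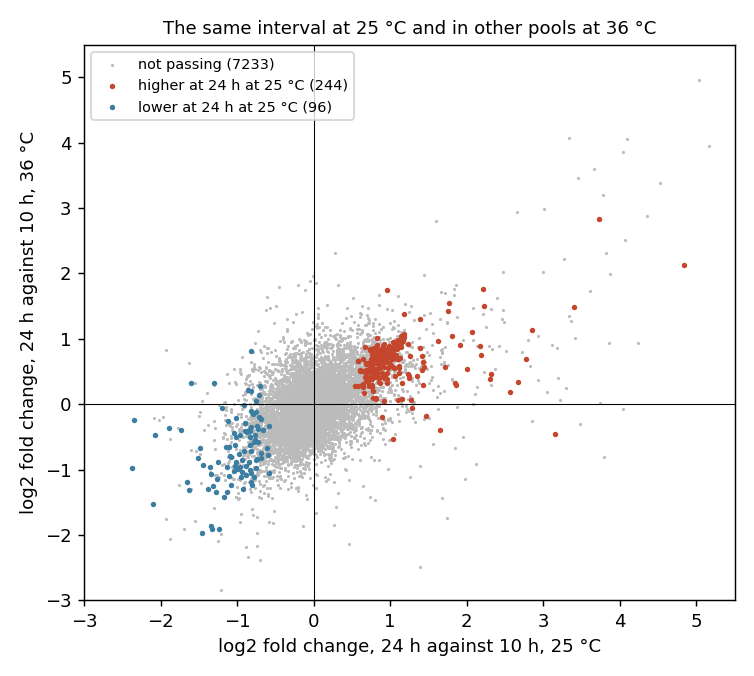
Log2 fold change from 10 h to 24 h at 25 °C (horizontal) and in the other 6 pools at 36 °C (vertical), a point for each of 7573 transcripts; 11 lie outside the axes. The 244 risers at 25 °C lie above the horizontal line in 238 cases, and the 96 fallers below it in 88.

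Pool B at 10 h stood apart at 36 °C too. The median level of the 244 risers, scaled over all 15 libraries, was 102, 231 and 75.5 CPM in 10 h pools A, B and C at 36 °C and 178, 214 and 213 CPM at 24 h, so that 10 h pool B was above all 24 h pools. For the 96 fallers it was 105, 57.9 and 124 CPM at 10 h and 84.9, 64.7 and 57.8 CPM at 24 h. Only 17 risers (6.97%) had every 24 h pool above every 10 h pool at 36 °C, against 9.77% of all tested, and 9 fallers (9.38%) the reverse, against 10.3%. Without that pool 223 risers (91.4%) had every 24 h pool above both 10 h pools, against 32.7% of all tested. Of the fallers 83 (86.5%) had every 24 h pool below both, against 34.8%. That pool was left out because of its levels, which favors such a separation, so that these shares are not separate support. No other pool at 36 °C was left out for this count. At 25 °C the median of the risers was 169, 195 and 160 CPM at 10 h and 395, 285 and 256 CPM at 24 h, and at 0 h, in pools that did not choose them, 101, 102 and 72.8 CPM.

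**Figure D5:**
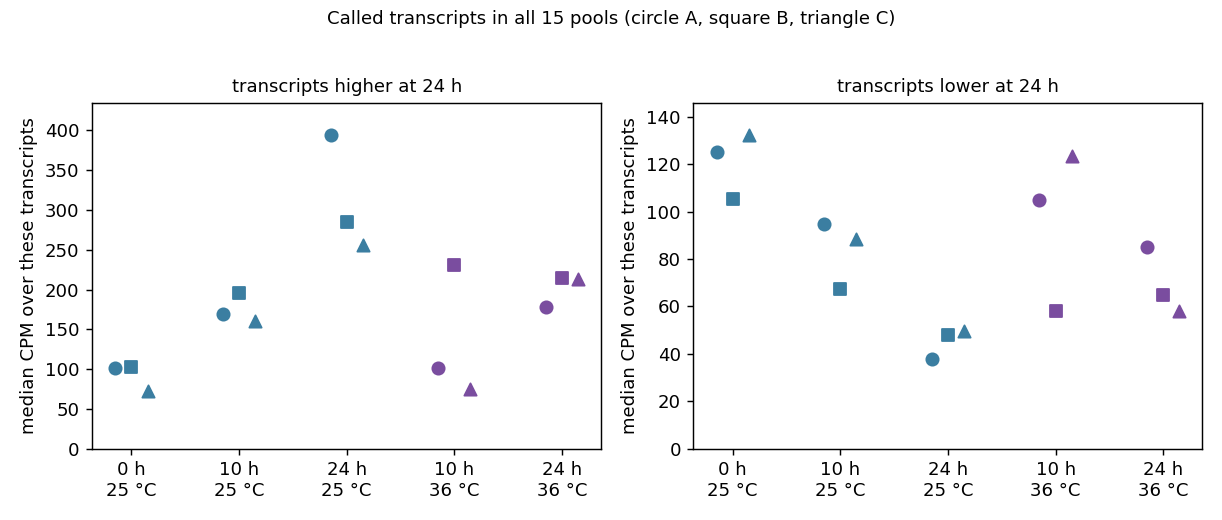
Median CPM (vertical axis, starting at 0) over the 244 risers (left) and the 96 fallers (right) in each of the 15 pools, by time and temperature; the symbol marks the pool letter. Pool B (square) at 10 h lies toward the 24 h pools, at 195 CPM at 25 °C and 231 CPM at 36 °C in the left panel, between the other 10 h pools and the 24 h pools at 25 °C and above every 24 h pool at 36 °C.

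No transcript's change from 10 h to 24 h differed between the temperatures at an adjusted p under 0.05 (0 of 8351 in edgeR's interaction test, 0%; 654 at an unadjusted p under 0.05). Without pool B at 10 h at 36 °C 124 did, and without any other single pool 0 did. Some named transcripts had unlike values even so. Y-b had log2 fold changes of 1.85 at 25 °C and 0.32 at 36 °C (adjusted p of the difference 0.595 in edgeR), and NV15411 of 2.67 and 0.34 (0.439). The values of oskar were -1.11 and -1.10, and those of klhl10 0.92 and 0.85. Neither gene passed at 36 °C (adjusted p = 0.118 and 0.286 in edgeR), and in both the 10 h and 24 h pools overlapped there.

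The levels at 0 h, on the scale of all 15 libraries, place the interval in its course. klhl10 stood at a mean of 487 CPM at 0 h (range 328 to 659), 1144 CPM at 10 h and 2176 CPM at 24 h, and oskar at 626 CPM (range 567 to 684), 380.1 CPM and 177 CPM. NV15411 went from 0.492 CPM through 5.71 to 36.1 CPM. Y-b took another course, with 23.1 CPM at 0 h (range 17.4 to 26.8), 12.6 CPM at 10 h and 46.4 CPM at 24 h. Fgfr1op stood at 59.7, 78.6 and 133 CPM. These steps share the 10 h pools and are given as levels only.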

How the data were processed

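Per the labels, RNA came from pools of 60 testes (the study's methods give 100 to 120), and libraries were made with a stranded mRNA kit and read as 100 base pairs. The authors aligned reads in TopHat2, version 2.1.0 in the submitters' notes, and deposited raw counts per RefSeq transcript, with htseq-count named in the methods and featureCounts 1.6.3 in the submitters' notes. The sources used here do not say whether counting used strand. Another 21 columns of values per library in the tables used, and the authors' columns of fold changes and p-values from DESeq2, were not used.

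The deposited counts held 26279 transcripts of 13999 genes, of which 10240 had no count in the 6 libraries. After filterByExpr, the 6 libraries were scaled by TMM and tested by quasi-likelihood with robust priors in edgeR 4.0.16 under R 4.3.3. The change at 36 °C and the difference between temperatures came from 1 fit of 12 libraries. A standard error (SE) is the log2 value over the root of its F statistic. The alternatives used DESeq2 1.42.0, other filters, scalings and priors, more libraries, counts summed per gene, a minimum log2 change of 1, the pool letter as a block, and each pool left out. The fit without cuticle genes was added after the data were seen. The script was checked on simulated counts. Python 3.11.15 with pandas 2.3.3 made the tables, and matplotlib 3.10.9 drew the figures.

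Named are the 15 largest rises and 15 largest falls among calls without overlap whose higher group averaged 10 CPM or more, the same number of each among calls with a readable symbol or a fly symbol, the 10 lowest p-values, genes the study names by NV number, the 4 lowest p-values of each list and the 10 most abundant transcripts. The text prints a selection of these 179. The members and lists were chosen with earlier results of these data known. Symbols came from a RefSeq table of Nvit_psr_1.1, in which 11605 genes matched, and no coordinates were taken from it. Of 66 genes the study names, 60 were in the tables used, 46 had a transcript that was tested and 6 were not analysed here. The result of 1 further called gene is not reported here.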

Additional observations from a re-analysis of the deposited data

How the results depend on the processing

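The count of risers was 608 with no filter on low counts, 486 in DESeq2 and 492 with the pool letter as a replicate block. It was 0 without robust priors (1898 transcripts at an unadjusted p under 0.05 in edgeR), 0 with the 9 libraries at 25 °C (1863), 0 with all 15 libraries (1607) and 0 when a log2 change over 1 was required (106). The count of fallers was 385 with no filter, 210 in DESeq2, 238 with the replicate block and 0 in each of those other 4 fits. Leaving out 1 pool at a time, risers ranged from 0 to 488 and fallers from 0 to 292. The count of changes differing between the temperatures was 1 with no filter and ranged from 0 to 124 with 1 pool left out. Other size factors, a filter at a mean of 10 CPM, counts per gene and the fit without cuticle genes left each count within 1.5 times. No called transcript among those named changed direction. The study's methods say that each sequencing multiplex held a library of each stage. The labels do not say which libraries shared one. Deviations of pools with the same letter had correlations of 0.06 (A), -0.19 (B) and 0.22 (C). With 3 pools a group these cannot settle whether the letters are pairs, and the main fit did not take them as pairs. Of the named calls, 3 did not pass with the letter as a block, among them Ctps (adjusted p = 0.0778) and the transcript of NV16841 (0.0877). The causes of these differences were not tested.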
